A study of Arabidopsis thaliana with 9 samples.

Results

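The comparison set 3 libraries labelled rgl2-13 DOF6ioex in estradiol against 3 libraries of DOF6ioex in mock solution, all RNA from freshly harvested Arabidopsis thaliana seeds imbibed for 8 h. Every seed carried DOF6ioex, an estradiol-inducible construct for overexpressing the transcription factor gene DOF6. The mock seeds are labelled as imbibed in water, and the other group as imbibed in 50 µM β-estradiol and as carrying rgl2-13, a mutant allele of the gene RGL2. Genotype and treatment therefore both differ between the groups, and their effects cannot be told apart here. Another group of 3 libraries, DOF6ioex in estradiol, shares the genotype label of one group and the estradiol of the other, and its values are set beside those of the 2 groups compared. No line without the construct is among the 9 libraries, and the labels do not say how many transgenic lines, plants or harvests the seeds came from. Of 22555 genes in the joined tables, 13513 reached 1 FPKM (fragments per kilobase of transcript, scaled to library size) or more in at least 3 of the 6 libraries and were tested. Just inside that rule lay 232 genes with exactly 3 libraries at 1 FPKM or more, of which 69 passed through the libraries labelled rgl2-13 alone and 4 through the mock libraries alone, and just outside lay 251 genes with 2 such libraries.

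RGL2 encodes a DELLA protein, one of the repressors of gibberellin signalling that are degraded when gibberellin is perceived, and it is the DELLA best known for holding back germination. DOF6 is a DOF-type zinc finger factor known as a repressor of germination in Arabidopsis, and DOF factors bind DNA at sites with an AAAG core. A freshly harvested seed is filled with transcripts for storage proteins, oil body proteins and late embryogenesis abundant (LEA) proteins left from maturation, and its germination depends on loosening of the cell walls of the embryo and of the endosperm around it.

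The 6 libraries had an estimated 27200000 to 28700000 fragments each, read from the steps between low FPKM values. On the first principal component of the tested genes (57.0% of the variance), replicate 1 of the libraries labelled rgl2-13 DOF6ioex stood at 34.1, apart from the other 5 libraries between -14.7 and 5.16. Its median-of-ratios factor was 1.17, against 0.926 to 1.02 in the others. The median log2 difference of all tested genes was 0.14, or 0.07 without that replicate and 0.01 after median-of-ratios or upper quartile scaling, so medians of gene lists are given relative to it. Several results that rest on that library are given with and without it. The 4 embryo and reserve markers summed to 44760 to 59479 FPKM in mock and 39355 to 41262 FPKM in the libraries labelled rgl2-13, and the 4 endosperm markers to 42130 to 54225 and 33840 to 67439 FPKM. Nearly all of the endosperm sum was EPR1, at 33815 to 67414 FPKM over the 6 libraries. ICE1 was at 24.6 to 27.0 FPKM, and ZOU and NAC25 reached at most 0.03 FPKM. The markers found for the testa (3), for pollen (1) and for the silique and flower (1) stayed under 1 FPKM in all 6 libraries, and the pollen gene VGD1 was at the lowest listed value of 0.01. Green tissue markers summed to 20.2 to 40.1 FPKM in mock and 26.8 to 34.1 FPKM in the libraries labelled rgl2-13. Mucilage markers summed to 3.36 to 3.94 and 3.66 to 4.32 FPKM, and the root marker RHD6 was at 0.85 to 1.74 FPKM. The markers TT2, MGH3, SEP3, AP1, SHP1 and SHP2 and the root markers COBL9 and EXPA7 had no entry among the joined genes. LAT52 could not be matched to a gene. In whole seeds, fewer cells of a type and less RNA per cell cannot be told apart.

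The targeted genes were read first, as a check of the labels. DOF6 (AT3G45610) stood at 0.64, 0.86 and 0.41 FPKM in the mock replicates 1, 2 and 3 and at 52.2, 21.4 and 27.5 FPKM in the libraries labelled rgl2-13 DOF6ioex. It rose by log2 4.32 ± 0.27 (SE; limma adjusted p = 0.000104), from a mean of 0.637 ± 0.225 to 33.7 ± 16.3 FPKM (SD, n = 3 each). The DOF6ioex estradiol libraries, at 33.7, 32.0 and 36.0 FPKM, lay inside the range of the other induced group and varied less. Gene-level values do not separate transcripts of the construct from those of the native gene. RGL2 (AT3G03450) stood at 10.4, 13.1 and 8.86 FPKM in mock and at 17.9, 16.1 and 18.8 FPKM in the libraries labelled rgl2-13, with no overlap. Its log2 difference of 0.67 ± 0.14 did not pass over all genes (adjusted p = 0.117), and the DOF6ioex estradiol libraries held 8.02, 7.57 and 10.2 FPKM. The mutant label thus went with a higher value of RGL2, and every direction below is that of the label.

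Of the 13513 genes, 18 (0.133%) changed at a limma Benjamini-Hochberg adjusted p under 0.05, 11 higher (0.0814%) and 7 lower (0.0518%) in the libraries labelled rgl2-13 DOF6ioex. A difference of 1 or more in log2(FPKM + 1) was reached by 8 of the 18. At an unadjusted p under 0.05 there were 2749 genes, 2491 higher (18.4%) and 258 lower (1.91%). In 3700 genes (27.4%) every library labelled rgl2-13 was above every mock library, and in 471 (3.49%) every one was below. For DOF6, ASPGB1 and AT5G10040, one whole group lay under 1 FPKM, so that these 3 could enter the test only by being high in the other group. Since the labels do not say that replicates came from separate harvests, the p-values measure the spread between these libraries, which may be technical.

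Among the changed genes, the largest differences on the log2(FPKM + 1) scale beside DOF6 were of 4 transcripts that had already been seen to set this line apart from DOF6ioex in estradiol, so their listing here is no independent support. AT3G01345, an expressed protein with no described function, stood at 113, 99.1 and 95.8 FPKM in mock and at 5.14, 5.04 and 4.72 FPKM in the libraries labelled rgl2-13 DOF6ioex. It fell by 4.12 ± 0.10 on the log2 scale (adjusted p = 7.18e-08), while the DOF6ioex estradiol libraries ranged from 97.6 to 114 FPKM, level with mock. ILA (AT1G64790), for a HEAT repeat protein, went from 15.6, 18.8 and 25.4 FPKM to 344, 266 and 288 FPKM. That rise of log2 3.86 ± 0.17 (adjusted p = 7.60e-06) had no counterpart in DOF6ioex estradiol, at 21.0 to 22.7 FPKM. AT1G64795, a hypothetical protein gene on the opposite strand whose span overlaps ILA in TAIR10.1, went from 3.21, 5.54 and 7.95 FPKM to 116, 107 and 117 FPKM (log2 4.19 ± 0.22, adjusted p = 3.46e-05). Since no strand setting is given for the counting, reads of this overlapping pair cannot be told apart. AT3G44006, also a hypothetical protein gene, fell by 1.40 ± 0.12 on the log2 scale (adjusted p = 0.00172), from 9.26, 9.21 and 11.9 FPKM to 3.33, 3.38 and 2.91 FPKM. These 4 genes and DOF6 were the 5 that stayed past the threshold whichever of the 6 libraries was left out, and the other 13 lost the call without at least 1 library. AT3G01345 and ILA passed in all 17 other fits, and the other 3 in all but the fit without a filter on low values. By locus code, 7 of the 18 lay on chromosome 3 (38.9%), which holds 19.8% of the tested genes and also RGL2 itself. Chromosomes 1 and 5 held 4 each. Among the 7 is DOF6, whose reads may come from the construct and not from that locus. In the fit on all 9 libraries, 24 of the 84 calls lay on chromosome 3 and 23 on chromosome 1. Whether the position of RGL2 plays a part was not tested.

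**Figure D1:**
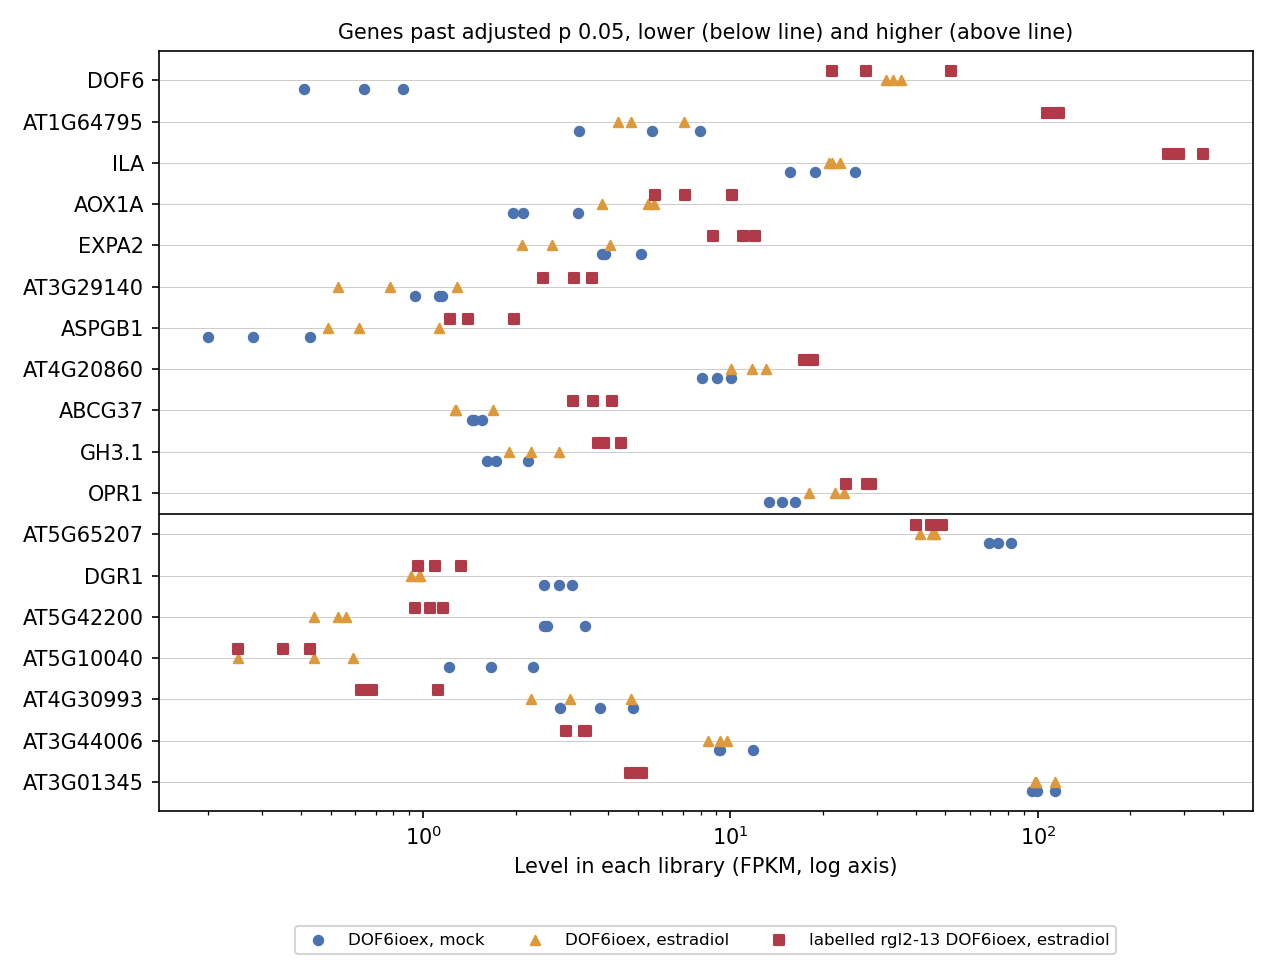
Level in each of the 9 libraries (FPKM, log axis) of the 18 genes past the threshold, with DOF6ioex mock as circles, DOF6ioex estradiol as triangles and the libraries labelled rgl2-13 DOF6ioex as squares. Squares and circles do not overlap for any of the 18 genes; triangles overlap circles but not squares for 9 genes, squares but not circles for 4, and neither for 5.

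The DOF6ioex estradiol libraries placed the 18 genes in 3 kinds. For 6 of the higher and 3 of the lower genes their range overlapped mock and not the libraries labelled rgl2-13, as for ILA and EXPA2. For DOF6, DGR1, AT5G10040 and AT5G65207 it overlapped the libraries labelled rgl2-13 and not mock. For AT4G20860, OPR1, ASPGB1 and AOX1A it lay between both groups, and for AT5G42200 it lay below both. The estradiol and mock libraries are shared with other comparisons of this series, and no test was made between them here.

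Among genes for loosening of cell walls 1 rose in the libraries labelled rgl2-13 DOF6ioex, where 0.0814% of all genes did. This list and those below were chosen with earlier results of these data known. Their counts beside the shares of all genes are therefore no independent support. Of 22 genes on the list 13 passed the filter, and 11 of these were fitted higher and 2 lower, where 80.2% of all genes were fitted higher. At an unadjusted p under 0.05, 7 were higher, where 18.4% of all genes were, and the median log2 difference was 0.47 above that of all genes (0.50 without replicate 1). In mock and in DOF6ioex estradiol the list lay level or lower, with library medians from -0.28 to 0.05 on the log2 scale around the mock mean, against 0.68, 0.62 and 0.37 in the libraries labelled rgl2-13. EXPA2 (AT5G05290), for an alpha-expansin that loosens walls during germination, was the member that rose. It stood at 3.92, 3.81 and 5.10 FPKM in mock, at 2.63, 4.07 and 2.1 FPKM in DOF6ioex estradiol and at 10.97, 12.01 and 8.79 FPKM in the libraries labelled rgl2-13, where it was above all other libraries. The rise was log2 1.13 ± 0.14 (adjusted p = 0.0231), and the call was lost without mock replicate 1, 2 or 3 (adjusted p = 0.0965, 0.184 and 0.0557).

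The other members did not pass the test on 6 libraries, and those given here were chosen after their values were seen. EXPA8, also an alpha-expansin gene, stood at 7.48, 9.36 and 5.30 FPKM in mock and at 22.1, 12.9 and 16.2 FPKM in the libraries labelled rgl2-13 (log2 1.11, adjusted p = 0.105). XTH19, for a xyloglucan endotransglucosylase that cuts and rejoins wall xyloglucan, was at 0.58, 0.75 and 0.80 FPKM in mock and at 2.01, 1.62 and 3.14 FPKM there (log2 0.90, adjusted p = 0.0852, or 0.0244 in a fit on all 9 libraries). MAN7, for an endo-beta-mannanase, was at 4.57, 5.72 and 5.74 FPKM and at 9.14, 10.3 and 6.83 FPKM. XTH19 was under 1 FPKM in all mock libraries and so entered the test only by being high in the other group. In each of these 3 genes the groups did not overlap. The DOF6ioex estradiol libraries overlapped mock for EXPA8 and XTH19 and lay below it for MAN7, at 2.89 to 4.22 FPKM. EXPA10 went the other way for 2 of 3 libraries, with 9.10, 7.99 and 6.98 FPKM in mock and 9.19, 4.35 and 5.35 FPKM in the libraries labelled rgl2-13. Its DOF6ioex estradiol values of 3.59, 4.64 and 4.46 FPKM were the lowest of the 3 groups on average.

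Transcripts of storage and oil body proteins were lower together. All 14 members found passed the filter and were fitted lower, against 19.8% of all genes. In limma 0 passed the threshold, 8 were lower at an unadjusted p under 0.05, where 1.91% of all genes were, and in 9 every library labelled rgl2-13 was below every mock library, against 3.49% of all genes. Their median log2 difference was -0.36, which is -0.50 relative to all genes and -0.42 without rgl2-13 replicate 1. The 14 genes gave 95527, 100662 and 98405 FPKM in sum in replicates 1, 2 and 3 of the libraries labelled rgl2-13, below the 146848, 119250 and 115548 FPKM of mock. The DOF6ioex estradiol sums of 116347 to 120204 FPKM lay within the mock range. SESA3, for a napin-type 2S albumin, stood at 34723, 23842 and 22812 FPKM in mock and at 18578, 21259 and 18378 FPKM in the libraries labelled rgl2-13 (adjusted p = 0.202). Its mock replicate 1 was far above the other libraries, and the groups did not overlap. SESA5, also for a 2S albumin, stood at 22890, 24613 and 24128 FPKM in mock, at 23381, 26343 and 26379 FPKM in DOF6ioex estradiol and at 19094, 17951 and 20760 FPKM in the libraries labelled rgl2-13 (log2 -0.31, adjusted p = 0.20). It was lower in each of these than in any other library. CRA1, SESA4, CRU2 and OLEO1 are named after their values were seen. CRA1, for a cruciferin, the 12S storage globulin, stood at 14264, 11358 and 11470 FPKM in mock and at 9657, 9180 and 9504 FPKM in the libraries labelled rgl2-13 (log2 -0.38, adjusted p = 0.190). SESA4, also for a 2S albumin, was at 9881, 8755 and 7794 FPKM and at 6000, 6315 and 6224 FPKM (log2 -0.51, adjusted p = 0.139). Both genes were lower in each library labelled rgl2-13 than in any mock library. CRU2, also for a cruciferin, was at 4044, 3386 and 3112 FPKM and at 2320, 2403 and 2498 FPKM, and it passed with all 9 libraries in 1 fit (adjusted p = 0.0445) but not in the reported one (adjusted p = 0.133). The oleosin gene OLEO1, at 17494, 16697 and 15181 FPKM and at 13420, 14901 and 15330 FPKM, overlapped between the groups.

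The promoters of this list share the RY motif CATGCA, to which the B3 factors of seed maturation bind. It was found on either strand in the 250 bases before the gene start of 13 of the 14 members (92.9%), against 6.89% of the 13377 promoters read for tested genes. EXPA2, which rose, holds it too, as do 5 of the 13 cell wall genes (38.5%). The sequences below are from RefSeq's TAIR10.1 genome, each 5′ to 3′ on its gene's strand, with CATGCA or its complement TGCATG in capitals. They are shown because the motif is in promoters of genes that differ in opposite directions. CRA1 is at chr5:17758337-17758586 on the minus strand with 2 matches, SESA4 at chr4:13613346-13613595 on the plus strand with 6 matches, some overlapping, and EXPA2 at chr5:1568444-1568693 on the plus strand with 1. The match is a description of these letters and no evidence of binding.
CRA1: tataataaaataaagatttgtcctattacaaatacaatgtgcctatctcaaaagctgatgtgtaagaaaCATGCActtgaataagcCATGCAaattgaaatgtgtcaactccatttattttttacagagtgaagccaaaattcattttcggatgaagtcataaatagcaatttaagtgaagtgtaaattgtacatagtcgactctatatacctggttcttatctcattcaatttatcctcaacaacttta
SESA4: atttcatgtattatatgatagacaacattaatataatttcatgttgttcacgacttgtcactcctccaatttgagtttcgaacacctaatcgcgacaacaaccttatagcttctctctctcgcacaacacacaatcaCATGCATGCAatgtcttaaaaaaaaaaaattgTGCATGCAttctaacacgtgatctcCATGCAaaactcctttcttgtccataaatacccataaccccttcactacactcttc
EXPA2: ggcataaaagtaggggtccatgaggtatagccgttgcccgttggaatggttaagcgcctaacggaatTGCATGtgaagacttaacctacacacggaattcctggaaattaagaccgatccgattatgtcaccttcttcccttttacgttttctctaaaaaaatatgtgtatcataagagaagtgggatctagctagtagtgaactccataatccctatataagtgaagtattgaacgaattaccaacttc

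LEA transcripts were also mostly lower, with smaller differences. Of 21 genes 18 passed the filter, and 15 of these were fitted lower and 3 higher, where 19.8% of all genes were fitted lower. In limma 0 passed the threshold. At an unadjusted p under 0.05, 5 were lower and 1 higher, where 1.91% and 18.4% of all genes were. The median was -0.32 relative to all genes, or -0.21 without replicate 1. RAB18 (AT5G66400), a dehydrin gene and the highest of the list, stood at 21458, 24460 and 22325 FPKM in mock and at 16487, 19936 and 21220 FPKM in the libraries labelled rgl2-13 (adjusted p = 0.269). EM6, listed as GEA6, was at 5760, 5824 and 5887 FPKM and at 5074, 5361 and 6410 FPKM, with overlap. M10, chosen after its values were seen, was at 3899, 3894 and 3733 FPKM and at 3184, 2764 and 3097 FPKM (log2 -0.35, adjusted p = 0.178), and did not overlap. COR47, a dehydrin gene of cold and drought responses and also chosen afterwards, went the other way, from 1.13, 1.48 and 1.77 FPKM to 3.84, 3.76 and 2.86 FPKM (log2 0.87, adjusted p = 0.0504, and 0.0365 with all 9 libraries). In the LEA promoters, the ABA-response core ACGTG was found in 72.2%, and in 23.9% of all promoters read.

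Genes of the low-oxygen response, which in plants is driven by ERF-VII factors that are stable when oxygen is scarce, were lower in the libraries labelled rgl2-13 DOF6ioex. Of 27 genes 24 passed the filter and 2 fell, where 0.0518% of all genes did. AT5G10040, 1 of these 2, passed the filter only through the mock libraries, where it is high. Of the 24, 18 were fitted lower and 6 higher, where 19.8% of all genes were fitted lower. At an unadjusted p under 0.05, 14 were lower and 1 higher, where 1.91% and 18.4% of all genes were, and the median was -0.55 relative to all genes. Replicate 1 of the libraries labelled rgl2-13 stood apart here, with a list median of -0.16 on the log2 scale around the mock mean against -0.61 and -0.51 in replicates 2 and 3. Without it 22 of the 24 were fitted lower, the median relative to all genes was -0.61 and 12 fell, where 0.229% of all genes fell. The DOF6ioex estradiol libraries had list medians of -0.77, -0.62 and -0.69, so both estradiol groups lay below mock. AT5G65207, a hypothetical protein gene, fell from 74.2, 81.9 and 69.5 FPKM in mock to 49.0, 40.3 and 45.0 FPKM (log2 -0.74 ± 0.11, adjusted p = 0.0489). AT5G10040, for a transmembrane protein, fell from 1.66, 1.21 and 2.28 FPKM to 0.25, 0.35 and 0.43 FPKM (log2 -1.0 ± 0.15, adjusted p = 0.0489). Both calls were lost without mock replicate 1, 2 or 3 (adjusted p = 0.158, 0.334 and 0.149 for AT5G65207 and 0.137, 0.0919 and 0.157 for AT5G10040) and without rgl2-13 replicate 3 (0.126 and 0.0922). AT5G10040 also lost it without replicate 1 of that group (0.0592).

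Enzymes of fermentation and regulators passed the threshold in the fit without rgl2-13 replicate 1, and are named after that was seen. PDC1 (AT4G33070), for the pyruvate decarboxylase of ethanol fermentation, was at 97.8, 95.4 and 91.6 FPKM in mock and at 71.6, 44.7 and 50.5 FPKM in the libraries labelled rgl2-13 (adjusted p = 0.110, and 0.00254 without replicate 1). ADH1, for the alcohol dehydrogenase that follows it, was at 634, 566 and 572 FPKM and at 423, 384 and 399 FPKM (adjusted p = 0.0714, 0.0258 without replicate 1 and 0.0225 with all 9 libraries). Both enzymes were below every mock library in all 3 libraries of that label. LBD41, a LOB-domain factor gene induced by low oxygen, was at 272, 286 and 261 FPKM and at 235, 147 and 166 FPKM (adjusted p = 0.170 and 0.00815). HRA1 (AT3G10040), a trihelix factor gene that restrains the ERF-VII response, was at 71.3, 63.9 and 61.8 FPKM and at 54.2, 30.3 and 37.4 FPKM (adjusted p = 0.168 and 0.0113). HB1, for a non-symbiotic haemoglobin, was at 59.5, 61.9 and 59.7 FPKM and at 62.4, 34.4 and 37.5 FPKM, so that replicate 1 stood with mock (adjusted p = 0.228 and 0.00740). The ERF-VII genes themselves had log2 differences of 0.01 for RAP2.3 (listed as EBP), 0.02 for RAP2.12, 0.13 for RAP2.2, 0.12 for HRE2 (listed as ERF71) and 0.46 for HRE1 (listed as ERF73), none past the threshold. HRE1, the 1 list member higher at an unadjusted p under 0.05, was at 4.07, 3.2 and 3.91 FPKM in mock and at 7.36, 5.32 and 4.19 FPKM in the libraries labelled rgl2-13 (adjusted p = 0.208).

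Sulfur-limitation genes were fitted higher in every member that passed the filter, 10 of 16 on the list. Of all genes 80.2% were fitted higher. Each of the 10 was higher at an unadjusted p under 0.05, where 18.4% of all genes were. In limma 0 passed over all genes, and the median was 0.65 above that of all genes, or 0.56 without rgl2-13 replicate 1. In the fit without that replicate 3 of them rose, and with all 9 libraries 5 rose, where 0.229% and 0.503% of all genes did. APR3 and APR2, for the adenylylsulfate reductases that make sulfite from activated sulfate, had the highest values. APR3 stood at 43.3, 29.4 and 34.5 FPKM in mock and at 100.1, 60.03 and 64.5 FPKM in the libraries labelled rgl2-13 (log2 1.03 ± 0.20, adjusted p = 0.105). APR2 stood at 30.02, 25.5 and 31.7 FPKM and at 57.4, 36.8 and 41.4 FPKM (log2 0.60 ± 0.16, adjusted p = 0.174). In neither gene did the groups overlap, and the DOF6ioex estradiol libraries, at 60.1 to 70.8 FPKM for APR3 and 37.6 to 48.5 FPKM for APR2, were above mock as well. BGLU28, for a beta-glucosidase, and LSU3, of the low-sulfur response, are named after their values were seen. BGLU28 was at 0.11, 0.01 and 0.09 FPKM in mock and at 2.5, 1.09 and 1.1 FPKM there (adjusted p = 0.0504), having entered the test only through the libraries where it is high, and LSU3 at 5.10, 4.32 and 4.37 FPKM and at 11.8, 7.29 and 7.75 FPKM (adjusted p = 0.110). DIN2, for a beta-glucosidase induced by darkness and sugar starvation, was at 16.6, 9.91 and 15.7 FPKM in mock and at 58.1, 31.6 and 36.8 FPKM (adjusted p = 0.0504, and 0.0346 without replicate 1). It was above mock in DOF6ioex estradiol as well, at 37.3, 32.8 and 43.9 FPKM. Its list, of dark-inducible genes, had 7 of 11 members fitted higher (2 of 11 after median-of-ratios scaling) and a median of -0.12 relative to all genes. TPS11, of the trehalose phosphate synthase family, was at 48.9, 50.5 and 55.7 FPKM in mock and 45.2, 53.5 and 48.4 FPKM in the libraries labelled rgl2-13 (adjusted p = 0.662). ASN1, on the same list, for an asparagine synthetase, was at 246, 227 and 248 FPKM and at 192, 207 and 198 FPKM (adjusted p = 0.201).

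**Figure D2:**
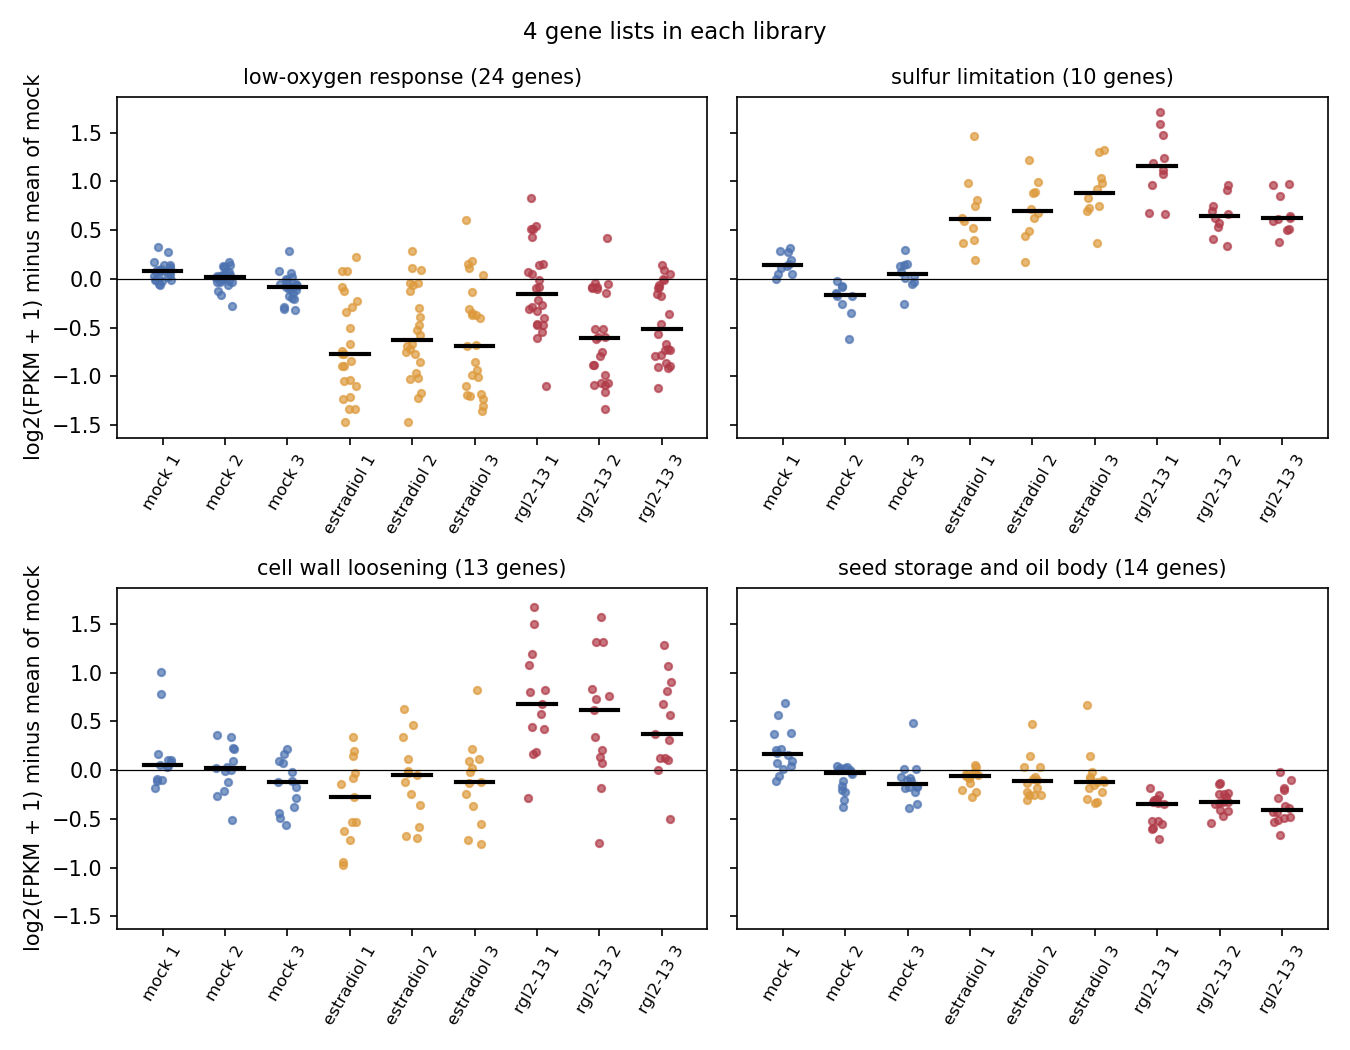
Members of 4 gene lists in each of the 9 libraries, as log2(FPKM + 1) minus the gene's mean over the 3 mock libraries, with a bar at each library's median. Low-oxygen genes lie below mock and sulfur-limitation genes above it in both estradiol groups, whereas cell wall medians of 0.37 to 0.68 and storage medians of -0.41 to -0.33 are seen in the libraries labelled rgl2-13 and not in DOF6ioex estradiol.

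Genes of the response to foreign compounds gave 3 of the 11 genes that rose. Of 28 genes 23 passed the filter and 3 rose, where 0.0814% of all genes did. Of the 23, 20 were fitted higher and 3 lower (17 and 6 after median-of-ratios scaling), near the 80.2% of all genes fitted higher. At an unadjusted p under 0.05, 14 were higher and 1 lower, where 18.4% and 1.91% of all genes were, and the median was 0.20 above that of all genes (0.19 without replicate 1). ABCG37, for an ABC transporter of the plasma membrane that exports auxin-like compounds, rose from 1.44, 1.56 and 1.46 FPKM to 4.13, 3.57 and 3.08 FPKM (log2 0.88 ± 0.11, adjusted p = 0.0307), and DOF6ioex estradiol was level with mock at 1.27 to 1.69 FPKM. OPR1, for an oxophytodienoate reductase, rose from 14.7, 13.3 and 16.3 FPKM to 28.6, 27.8 and 23.7 FPKM (log2 0.81 ± 0.11, adjusted p = 0.0407). AOX1A, for the alternative oxidase of mitochondria, which lets electrons bypass part of the respiratory chain, rose from 3.18, 1.96 and 2.1 FPKM to 10.1, 7.12 and 5.68 FPKM (log2 1.32 ± 0.19, adjusted p = 0.0489). For OPR1 and AOX1A the DOF6ioex estradiol libraries lay between the groups, at 18.0 to 23.4 and 3.83 to 5.62 FPKM. The 3 calls were lost without mock replicate 1, 2 or 3, at adjusted p of 0.108, 0.184 and 0.149 for ABCG37, 0.140, 0.290 and 0.141 for OPR1 and 0.0537, 0.305 and 0.196 for AOX1A, and that of OPR1 also without replicate 3 of the libraries labelled rgl2-13 (0.0648).

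CYP81D11, for a cytochrome P450 of detoxification, is named after its values were seen. It was at 18.1, 18.4 and 19.8 FPKM in mock, at 20.04 to 21.5 FPKM in DOF6ioex estradiol and at 36.6, 29.3 and 29.8 FPKM in the libraries labelled rgl2-13 (log2 0.73, adjusted p = 0.0504, and 0.0166 without replicate 1). Genes for glutathione transferases, also chosen afterwards, varied. GSTU1, at 8.08, 6.76 and 7.81 FPKM and at 15.7, 10.1 and 11.9 FPKM, did not overlap (adjusted p = 0.149), while GSTF6, at 39.5, 22.1 and 41.0 FPKM and at 43.1, 36.7 and 21.7 FPKM, did. TGACG, the core to which TGA factors of the xenobiotic response bind, was found in 10 of the 23 promoters (43.5%), and in 19.9% of all promoters read. ABCG37, OPR1 and AOX1A, the 3 members that rose, do not hold it. TTGAC, also searched, was found in 19 of the 23 (82.6%), and in 44.4% of all promoters read. The promoter of CYP81D11, at chr3:10790554-10790803 on the minus strand of TAIR10.1, is shown as the member nearest the threshold that holds TGACG, with the single match in capitals.
CYP81D11: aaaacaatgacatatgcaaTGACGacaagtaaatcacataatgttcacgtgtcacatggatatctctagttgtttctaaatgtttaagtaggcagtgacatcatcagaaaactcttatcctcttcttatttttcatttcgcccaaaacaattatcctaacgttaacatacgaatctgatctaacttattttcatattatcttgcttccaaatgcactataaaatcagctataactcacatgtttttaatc
In the promoters of the 18 changed genes the DOF core AAAG was present in 18, and it was present in 97.8% of all promoters read.

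The remaining 7 changed genes belong to none of the lists, and 6 of them lie under the level of 5 FPKM set for naming and are given because the count is small. AT4G20860, for a FAD-binding protein of the berberine bridge enzyme family, rose from 9.04, 8.08 and 10.03 FPKM to 18.6, 18.4 and 17.41 FPKM (log2 0.93 ± 0.10, adjusted p = 0.0141). The call was lost without mock replicate 1 or 2 (adjusted p = 0.0671 and 0.134). GH3.1, of the auxin-responsive GH3 family, rose from 1.61, 1.72 and 2.2 FPKM to 3.88, 4.41 and 3.71 FPKM (log2 0.82, adjusted p = 0.0428). ASPGB1, for an asparaginase, rose from 0.28, 0.43 and 0.20 FPKM to 1.97, 1.22 and 1.40 FPKM (log2 0.95, adjusted p = 0.0428). AT3G29140, a hypothetical protein gene, rose from 1.13, 0.94 and 1.15 FPKM to 3.10, 2.45 and 3.54 FPKM (log2 0.95, adjusted p = 0.0315). These 3 lost the call without mock replicate 1, 2 or 3 or replicate 3 of the libraries labelled rgl2-13, with adjusted p from 0.0914 to 0.290.

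The 3 falls among them were of low transcripts. AT4G30993, for a calcineurin-like phosphoesterase, fell from 4.83, 3.76 and 2.79 FPKM to 0.63, 0.68 and 1.12 FPKM (log2 -1.39, adjusted p = 0.0231), while DOF6ioex estradiol overlapped mock at 2.25 to 4.75 FPKM. DGR1, for a DUF642 protein of the cell wall, fell from 3.05, 2.76 and 2.47 FPKM to 1.33, 1.09 and 0.96 FPKM (log2 -0.82, adjusted p = 0.0407), with DOF6ioex estradiol as low at 0.91 to 0.98 FPKM. AT5G42200, for a RING-type protein, fell from 3.35, 2.48 and 2.53 FPKM to 0.94, 1.16 and 1.05 FPKM (log2 -0.88, adjusted p = 0.0402), and was lower still in DOF6ioex estradiol at 0.44 to 0.56 FPKM. AT4G30993 lost the call without mock replicate 1 or 2 (adjusted p = 0.0537 and 0.184). DGR1 and AT5G42200 lost it without mock replicate 1, 2 or 3 or replicate 3 of the libraries labelled rgl2-13, with adjusted p from 0.0922 to 0.251.

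The gibberellin, ABA and dormancy lists held 0 changed genes each in limma on 6 libraries. In the fit without rgl2-13 replicate 1, ADH1 was the 1 call among them, and with all 9 libraries ADH1 and CYP707A2 passed. In gibberellin metabolism 2 of 7 members were fitted higher and 5 lower, where 19.8% of all genes were fitted lower. At an unadjusted p under 0.05, 1 member was lower, where 1.91% of all genes were. That was GA20OX3, for a gibberellin 20-oxidase, named after its values were seen, at 22.9, 26.4 and 11.1 FPKM in mock and 12.3, 6.05 and 8.01 FPKM in the libraries labelled rgl2-13 (log2 -1.08, adjusted p = 0.182), where replicate 1 overlapped mock. GA3, for ent-kaurene oxidase, was at 80.5, 79.3 and 74.5 FPKM and at 77.7, 72.8 and 73.1 FPKM. KAO2, for ent-kaurenoic acid oxidase, was at 18.8, 19.2 and 16.2 FPKM in mock and 20.9, 18.6 and 18.22 FPKM in the libraries labelled rgl2-13 (adjusted p = 0.624). In gibberellin signalling 7 of 10 members were fitted higher (4 of 10 after median-of-ratios scaling), where 80.2% of all genes were. At an unadjusted p under 0.05 was 1 member in each direction, where 18.4% of all genes were higher and 1.91% lower. These were RGL2, higher, and RGL3, also a DELLA gene, lower. RGL3, chosen after its values were seen, was at 16.5, 17.9 and 15.4 FPKM and at 13.2, 13.6 and 13.8 FPKM (adjusted p = 0.205). The gibberellin receptor gene GID1A was at 43.5, 44.6 and 43.7 FPKM and at 47.8, 40.9 and 41.3 FPKM, with overlap. SEC, for an O-GlcNAc transferase, was at 32.4, 31.9 and 37.9 FPKM in mock and 40.2, 38.5 and 38.5 FPKM in the libraries labelled rgl2-13 (adjusted p = 0.29), without overlap.

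Among 8 genes of ABA synthesis and catabolism 7 were fitted higher (6 after median-of-ratios scaling) and 2 were so at an unadjusted p under 0.05, near the shares of all genes (80.2% and 18.4%). CYP707A2, for the ABA 8'-hydroxylase that breaks down ABA in imbibed seeds, was at 29.1, 28.5 and 29.2 FPKM in mock and at 48.02, 37.6 and 42.9 FPKM in the libraries labelled rgl2-13 (log2 0.54 ± 0.11, adjusted p = 0.110, and 0.0274 with all 9 libraries). The DOF6ioex estradiol libraries, at 37.4 to 38.1 FPKM, were above mock and level with the lowest of these. ABA1, for zeaxanthin epoxidase, was at 82.2, 85.4 and 98.9 FPKM and at 80.2, 85.7 and 90.6 FPKM. ABA signalling had 19 of 28 members fitted higher and 9 lower (10 and 18 after median-of-ratios scaling), with a median of -0.07 relative to all genes. At an unadjusted p under 0.05, 3 were higher and 1 lower, where 18.4% and 1.91% of all genes were. The phosphatase gene AHG1, at 380, 409 and 431 FPKM and at 384, 386 and 385 FPKM, and the bZIP factor gene ABI5, at 255, 269 and 295 FPKM and at 219, 265 and 271 FPKM, both overlapped. ABA-responsive genes outside the LEA family had 6 of 7 fitted lower, where 19.8% of all genes were. They were led by ADH1, which is also on the low-oxygen list, and RD29B (listed as LTI65) was at 500.3, 538 and 577 FPKM and at 433, 506 and 502 FPKM.

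Of 9 dormancy regulators 8 were fitted higher (5 after median-of-ratios scaling), where 80.2% of all genes were. At an unadjusted p under 0.05, 4 were higher, where 18.4% of all genes were. The median was 0.14 above that of all genes (0.20 without replicate 1). RDO5 (AT4G11040), a PP2C family gene that promotes dormancy, was at 108, 110 and 111 FPKM and at 116, 112 and 116 FPKM, and MFT (listed as E12A11) was at 43.5, 47.5 and 49.0 FPKM and at 51.2, 46.7 and 47.4 FPKM. DOG1, a major dormancy gene of Arabidopsis, chosen after its values were seen, was at 19.9, 16.0 and 17.2 FPKM and at 12.8, 17.8 and 16.2 FPKM, with overlap (adjusted p = 0.441). All 7 maturation regulators and repressors that passed the filter, of 12, were fitted higher (5 of 7 after median-of-ratios scaling), where 80.2% of all genes were. Of the 7, 3 were higher at an unadjusted p under 0.05, where 18.4% of all genes were. The median was 0.10 above that of all genes, or 0.02 without replicate 1. VAL1 (listed as HSI2), a B3 repressor of maturation genes, was at 12.1, 11.6 and 12.1 FPKM and at 17.8, 12.2 and 13.3 FPKM (adjusted p = 0.318), and BZIP25 was at 20.8, 19.4 and 19.9 FPKM and at 24.9, 19.7 and 21.6 FPKM.

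Organelle-encoded transcripts lay higher in the libraries labelled rgl2-13 DOF6ioex. Of 185 such genes 55 passed the filter, and 54 were fitted higher and 1 lower, where 80.2% of all genes were fitted higher. In limma 0 passed the threshold and 30 were higher at an unadjusted p under 0.05, where 18.4% of all genes were. The median was 0.33 above that of all genes, or 0.47 without rgl2-13 replicate 1. Replicate 2 had the highest list median, 0.76 on the log2 scale around the mock mean, against 0.27 and 0.35 in replicates 1 and 3 and 0.30 to 0.53 in DOF6ioex estradiol. The mitochondrial transcripts made up 0.0425 to 0.0568% of all FPKM in mock and 0.0632, 0.103 and 0.0720% in the libraries labelled rgl2-13. The part of this share in the other results was not tested. Among heat shock genes 16 of 18 were fitted higher (13 after median-of-ratios scaling) and 7 were so at an unadjusted p under 0.05. The shares of all genes were 80.2% and 18.4%. HSP70, for a chaperone, was at 773, 720 and 850.0 FPKM in mock and at 1051, 903 and 879 FPKM in the libraries labelled rgl2-13 (adjusted p = 0.227), and HSP17.4, for a small heat shock protein, at 3978, 4453 and 4483 FPKM and at 4166, 3649 and 4059 FPKM. In the jasmonate list 7 of 11 members were fitted higher (5 after median-of-ratios scaling), where 80.2% of all genes were. At an unadjusted p under 0.05, 4 were higher and 0 lower, where 18.4% and 1.91% of all genes were. JAZ1, for a repressor of jasmonate signalling, was at 32.3, 28.1 and 32.9 FPKM and at 62.7, 43.2 and 45.5 FPKM without overlap (adjusted p = 0.139, and 0.0478 with all 9 libraries). JAZ3, of the same family, was at 49.4, 44.05 and 51.8 FPKM in mock and 58.3, 50.8 and 47.3 FPKM in the libraries labelled rgl2-13 (adjusted p = 0.582). The cytosolic ribosomal list holds 26 genes, chosen by their gene descriptions, and 24 passed the filter. Its library medians followed replicate 1, at 0.50, -0.13 and 0.06 in replicates 1, 2 and 3. Of the 24, 21 were fitted higher, where 80.2% of all genes were. Without replicate 1, 8 were, against 9351 of all 13513 genes. Family members described otherwise, such as RPL3B, are not on that list.

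In the lists that follow, no member passed the threshold in limma on 6 libraries. Unadjusted counts of these lists are read against 18.4% of all genes higher and 1.91% lower. Their counts of members fitted higher are read against 80.2% of all genes. In reserve lipid mobilisation 14 of 18 members were fitted higher (4 after median-of-ratios scaling), 0 were higher and 0 lower at an unadjusted p under 0.05, and the median was -0.06 relative to all genes. ICL, for the isocitrate lyase of the glyoxylate cycle, was at 4749, 4686 and 4772 FPKM in mock and 5786, 4744 and 5037 FPKM in the libraries labelled rgl2-13 (adjusted p = 0.469). MLS, for malate synthase of the same cycle, was at 1777, 1835 and 1597 FPKM in mock and 1999.96, 1484 and 1662 FPKM in the libraries labelled rgl2-13 (adjusted p = 0.909). Both overlapped between the groups. In fatty acid synthesis 14 of 16 members were fitted higher (5 after median-of-ratios scaling), 1 were higher and 1 lower at an unadjusted p under 0.05, and the median was -0.04 relative to all genes. FAD2, for the oleate desaturase, was at 71.2, 51.6 and 48.1 FPKM in mock and 75.2, 63.1 and 67.1 FPKM in the libraries labelled rgl2-13 (adjusted p = 0.301), and TAG1, for a diacylglycerol acyltransferase of oil synthesis, at 63.3, 58.5 and 69.9 FPKM in mock and 71.3, 71.9 and 68.6 FPKM in the libraries labelled rgl2-13 (adjusted p = 0.395). In photosynthesis 6 of 11 members were fitted higher (2 after median-of-ratios scaling), 0 were higher and 0 lower at an unadjusted p under 0.05, and the median was -0.11 relative to all genes. RBCS1A, for a Rubisco small subunit, was at 34.4, 26.6 and 16.5 FPKM in mock and 25.6, 22.9 and 29.8 FPKM in the libraries labelled rgl2-13 (adjusted p = 0.871), and PSBR, of photosystem II, at 25.7, 20.9 and 19.3 FPKM in mock and 21.9, 17.9 and 17.8 FPKM in the libraries labelled rgl2-13 (adjusted p = 0.421), both with overlap. In the cell cycle list 5 of 7 members were fitted higher (3 after median-of-ratios scaling), 0 were higher and 0 lower at an unadjusted p under 0.05, and the median was -0.01 relative to all genes. CYCD2;1, for a D-type cyclin, was at 16.1, 15.4 and 14.6 FPKM in mock and 28.6, 16.3 and 18.4 FPKM in the libraries labelled rgl2-13 (adjusted p = 0.246), without overlap, and RNR2A, for a ribonucleotide reductase subunit, at 36.8, 34.7 and 30.9 FPKM in mock and 48.6, 33.1 and 35.7 FPKM in the libraries labelled rgl2-13 (adjusted p = 0.476). The ribosomal genes P40, at 245, 261 and 205 FPKM in mock and 314, 219 and 245 FPKM in the libraries labelled rgl2-13 (adjusted p = 0.63), and UBQ6, at 234, 248 and 201 FPKM in mock and 375, 192 and 221 FPKM in the libraries labelled rgl2-13 (adjusted p = 0.682), were highest in replicate 1 of that label.

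Among regulators, in light control 12 of 14 members were fitted higher (7 after median-of-ratios scaling), 2 were higher and 0 lower at an unadjusted p under 0.05, and the median was 0.01 relative to all genes. SOM, a zinc finger gene that represses germination, was at 223, 250.02 and 241 FPKM in mock and 226, 266 and 249.9 FPKM in the libraries labelled rgl2-13 (adjusted p = 0.75), and PHYA, for phytochrome A, at 53.1, 51.2 and 46.97 FPKM in mock and 70.2, 51.6 and 53.98 FPKM in the libraries labelled rgl2-13 (adjusted p = 0.365). In the GATA family 11 of 12 members were fitted higher (10 after median-of-ratios scaling), 3 were higher and 0 lower at an unadjusted p under 0.05, and the median was 0.10 relative to all genes. GATA19 was at 19.3, 21.7 and 19.9 FPKM in mock and 15.3, 19.1 and 18.5 FPKM in the libraries labelled rgl2-13 (adjusted p = 0.318), below mock in all 3, while CGA1, at 16.03, 13.2 and 13.1 FPKM in mock and 22.8, 13.9 and 18.1 FPKM in the libraries labelled rgl2-13 (adjusted p = 0.275), overlapped. In nitrate transport and assimilation 10 of 13 members were fitted higher (8 after median-of-ratios scaling), 3 were higher and 0 lower at an unadjusted p under 0.05, and the median was 0.01 relative to all genes. NIR1, for nitrite reductase, was at 132, 130.2 and 139 FPKM in mock and 231, 159 and 176 FPKM in the libraries labelled rgl2-13 (adjusted p = 0.182), above mock in all 3. NRT2.7, for a nitrate transporter of the seed vacuole, was at 265, 243 and 236 FPKM in mock and 238, 214 and 244 FPKM in the libraries labelled rgl2-13 (adjusted p = 0.562). In ethylene signalling 12 of 15 members were fitted higher (8 after median-of-ratios scaling), 4 were higher and 0 lower at an unadjusted p under 0.05, and the median was 0.01 relative to all genes. EIN3, for its main transcription factor, was at 218, 217 and 231 FPKM in mock and 260.1, 239 and 240.01 FPKM in the libraries labelled rgl2-13 (adjusted p = 0.35), and EBF1, for the F-box protein that removes EIN3, at 66.3, 59.6 and 60.8 FPKM in mock and 86.2, 71.1 and 69.03 FPKM in the libraries labelled rgl2-13 (adjusted p = 0.23). Both were above mock in every library of that label. In the auxin list 10 of 11 members were fitted higher (8 after median-of-ratios scaling), 5 were higher and 0 lower at an unadjusted p under 0.05, and the median was 0.17 relative to all genes. ARF16 was at 15.01, 18.5 and 19.6 FPKM in mock and 23.8, 22.5 and 21.4 FPKM in the libraries labelled rgl2-13 (adjusted p = 0.201), without overlap, and the receptor gene TIR1 at 19.6, 18.8 and 20.6 FPKM in mock and 22.4, 20.6 and 19.7 FPKM in the libraries labelled rgl2-13 (adjusted p = 0.609). AUX1, for an auxin influx carrier, entered that list only by being above 1 FPKM in the libraries labelled rgl2-13.

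Among genes of reserves and seed tissues, in aquaporins 5 of 11 members were fitted higher (3 after median-of-ratios scaling), 0 were higher and 1 lower at an unadjusted p under 0.05, and the median was -0.15 relative to all genes. TIP3;1, for an aquaporin of protein storage vacuoles, was at 2028, 1937 and 1779 FPKM in mock and 1473, 1756 and 1641 FPKM in the libraries labelled rgl2-13 (adjusted p = 0.242), below mock in all 3, and BETA-TIP, for a related one, at 1425, 1257 and 1379 FPKM in mock and 1063, 1341 and 1207 FPKM in the libraries labelled rgl2-13 (adjusted p = 0.371). In the raffinose family 3 of 6 members were fitted higher (1 after median-of-ratios scaling), 1 were higher and 0 lower at an unadjusted p under 0.05, and the median was -0.13 relative to all genes. SIP2, for a raffinose-cleaving galactosidase, was at 208, 192 and 225 FPKM in mock and 341, 274 and 282 FPKM in the libraries labelled rgl2-13, above mock in all 3 (adjusted p = 0.143, and 0.0464 with all 9 libraries). GolS1, for a galactinol synthase, was at 337, 355 and 403 FPKM in mock and 371, 356 and 385 FPKM in the libraries labelled rgl2-13 (adjusted p = 0.891). In vacuolar proteases 6 of 9 members were fitted higher (4 after median-of-ratios scaling), 3 were higher and 0 lower at an unadjusted p under 0.05, and the median was -0.05 relative to all genes. BETA-VPE was at 842, 837 and 933 FPKM in mock and 816, 818 and 845 FPKM in the libraries labelled rgl2-13 (adjusted p = 0.626) and APA1 at 398, 406 and 389.8 FPKM in mock and 406, 364 and 370.1 FPKM in the libraries labelled rgl2-13 (adjusted p = 0.647). In the reactive oxygen list 8 of 15 members were fitted higher (3 after median-of-ratios scaling), 1 were higher and 2 lower at an unadjusted p under 0.05, and the median was -0.11 relative to all genes. PER1, for a seed peroxiredoxin, was at 3149, 3121 and 3562 FPKM in mock and 2463, 2768 and 2776 FPKM in the libraries labelled rgl2-13 (adjusted p = 0.202), below mock in all 3, and the catalase gene CAT3 at 1566, 1437 and 1505 FPKM in mock and 1336, 1425 and 1474 FPKM in the libraries labelled rgl2-13 (adjusted p = 0.559). In the testa pathway 2 of 4 members were fitted higher (1 after median-of-ratios scaling), 0 were higher and 0 lower at an unadjusted p under 0.05, and the median was -0.15 relative to all genes. F3H was at 7.64, 9.19 and 10.9 FPKM in mock and 8.35, 12.3 and 10.9 FPKM in the libraries labelled rgl2-13 (adjusted p = 0.538) and TTG1 at 4.15, 3.36 and 2.96 FPKM in mock and 4.04, 4.01 and 3.49 FPKM in the libraries labelled rgl2-13 (adjusted p = 0.566). Among mucilage genes 2 of 3 members were fitted higher (2 after median-of-ratios scaling), 1 were higher and 0 lower at an unadjusted p under 0.05, and the median was 0.03 relative to all genes. AT4G28370 was at 4.27, 3.34 and 4.42 FPKM in mock and 5.08, 4.09 and 4.67 FPKM in the libraries labelled rgl2-13 (adjusted p = 0.426) and AT2G47670 at 3.76, 3.79 and 3.22 FPKM in mock and 3.67, 2.99 and 3.44 FPKM in the libraries labelled rgl2-13 (adjusted p = 0.693). Of endosperm markers 4 of 5 members were fitted higher (2 after median-of-ratios scaling), and 2 were higher and 0 lower at an unadjusted p under 0.05. The median was -0.07 relative to all genes, and 0.20 without rgl2-13 replicate 1, so its sign rests on that library. EPR1, the most abundant transcript, was at 42103, 54199.8 and 48812 FPKM in mock and 33815, 67414 and 56484 FPKM in the libraries labelled rgl2-13 (adjusted p = 0.862), with replicate 1 below and replicates 2 and 3 above every mock library.

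**Figure D3:**
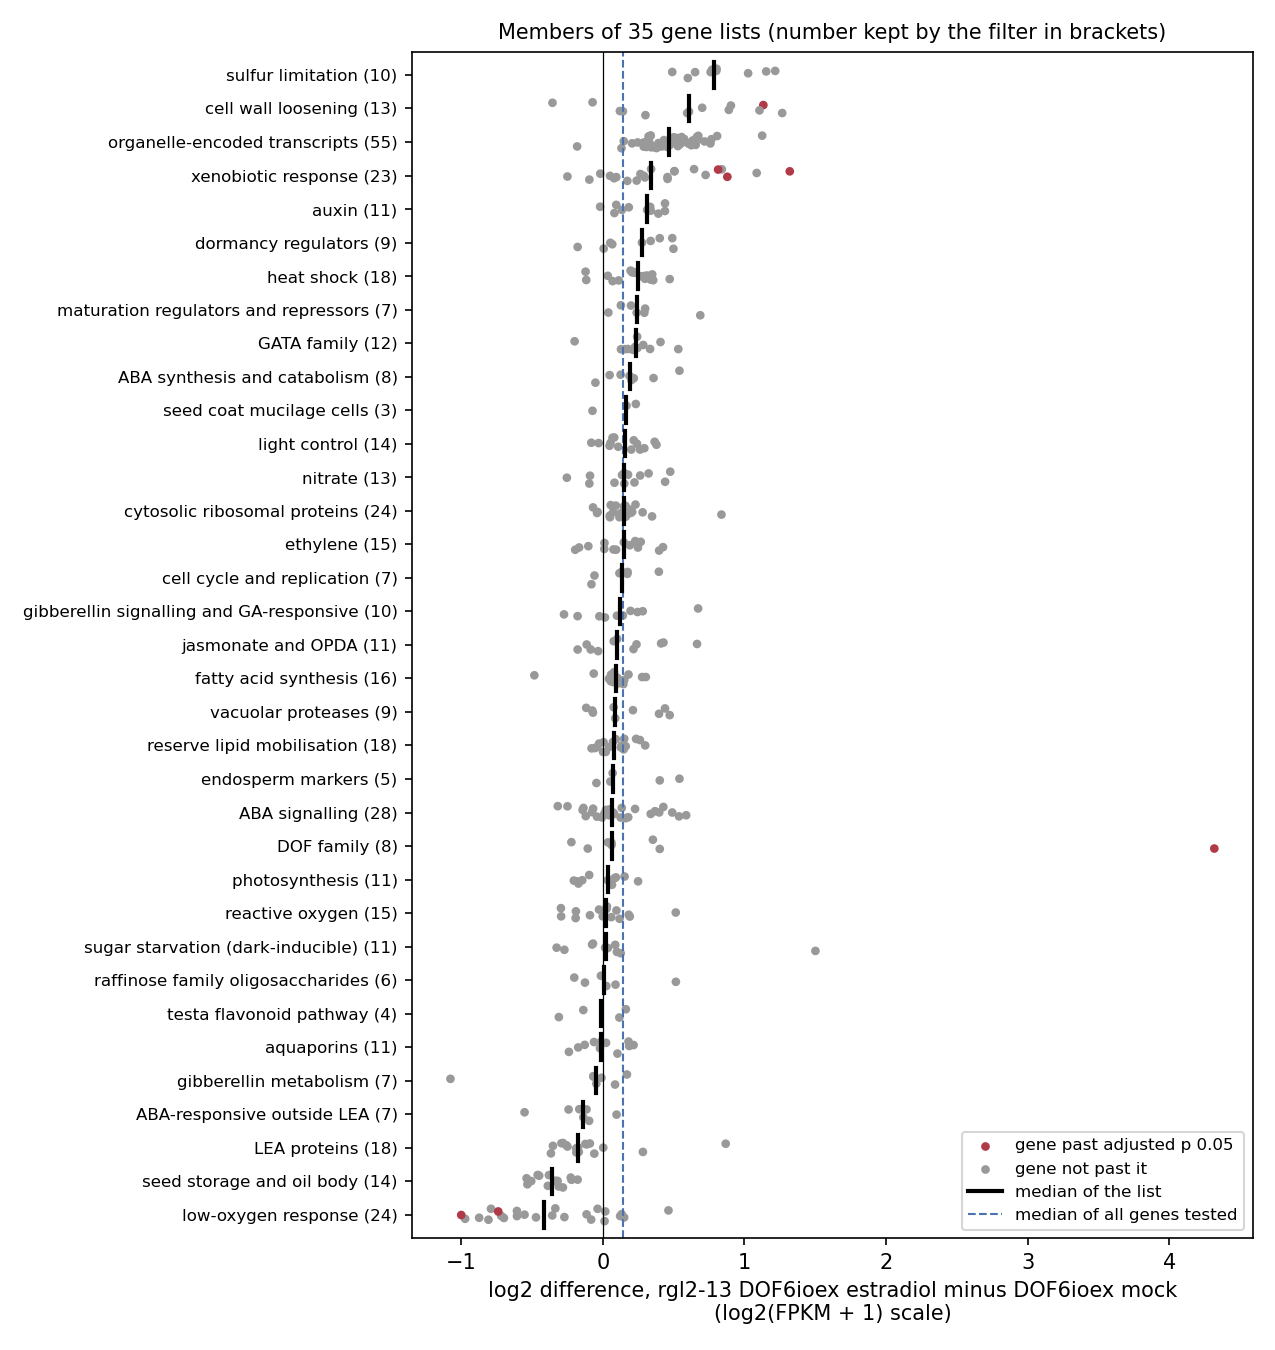
Log2 difference between the libraries labelled rgl2-13 DOF6ioex and mock for each member of 35 gene lists, with a bar at each list's median and a dashed line at the median of all genes, 0.14. The lists run from sulfur limitation (median 0.79) at the top to low-oxygen response (median -0.41) at the bottom, and changed genes, in red, are in 4 lists.

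The number of changed genes moved with the fit and with the libraries in it. Leaving out replicate 1 of the libraries labelled rgl2-13 gave 62 genes (0.459%), 31 in each direction, and leaving out replicate 2 gave 57, while leaving out mock replicate 1, 2 or 3 gave 6, 5 or 9 and replicate 3 of the libraries labelled rgl2-13 gave 12. In a fit of the 3 groups without rgl2-13 replicate 1, chosen after seeing the data, 134 genes (0.992%) changed. With all 9 libraries sharing 1 estimate of the spread, 84 genes (0.622%) changed, 68 higher and 16 lower, and all 18 were among them. Median-of-ratios scaling gave 31 genes, 16 higher and 15 lower, with 17 of the 18 among them, so that higher calls made up 51.6% of the calls in place of 61.1%, both directions having more calls.

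**Figure D4:**
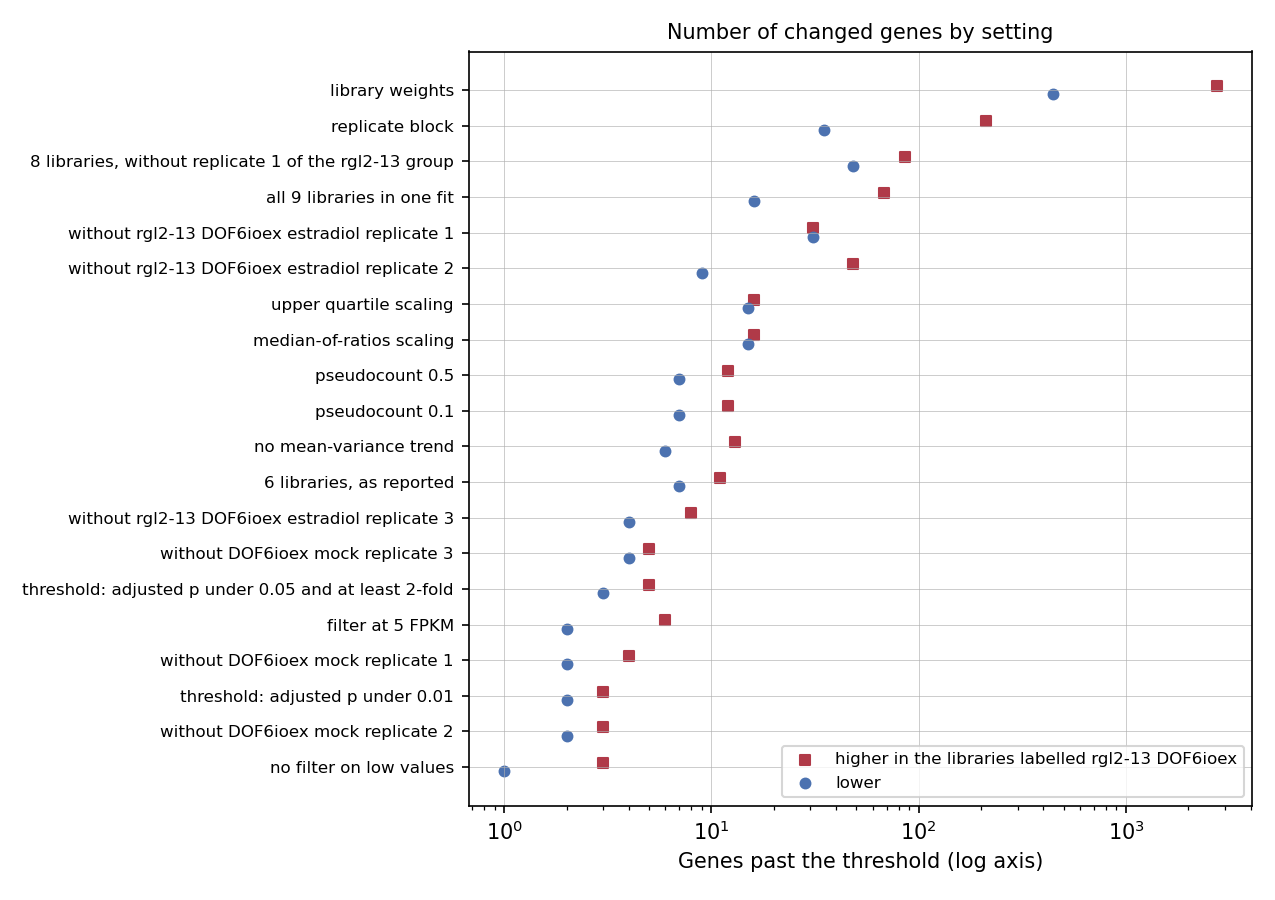
Genes past the threshold (log axis), higher as squares and lower as circles, in the reported fit on 6 libraries and under each other setting. The counts run from 4 genes without a filter on low values to 3190 with library weights, and the reported fit gave 11 higher and 7 lower.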

How the data were processed

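RNA was sequenced from 9 seed samples, of which 6 libraries in 2 groups of 3 enter the comparison. The submitters' processing notes name HISAT as the aligner. Its version, the quantifier, strand setting and genome build were not given in the sources read here. The authors deposited FPKM values per gene, per the file headers, in pairwise tables with 2 decimals and a lowest listed value of 0.01, which was also used for genes missing from a table. One table heads the same kind of deposited values RPKM. Of 22415 locus codes 22230 matched the TAIR10.1 gene table, and the deposited length equalled the TAIR10.1 transcript for 91.7% of 12359 genes with 1 transcript.

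Genes with 1 FPKM or more in at least 3 of the 6 libraries were fitted as log2(FPKM + 1) with limma 3.58.1 in R 4.3.3 (a mean per group, eBayes with trend, two-sided), and p was Benjamini-Hochberg adjusted over all genes tested, with 0.05 as threshold. The fit was tested on simulated data. Fold changes on this scale understate those of low genes. Depth was estimated from the steps of low values, of which 74.6 to 80.4% were whole within 0.15 where chance gives 30%, so no count test was run. Promoters are the 250 bases before the gene start in TAIR10.1, searched on both strands.

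Named are DOF6 and RGL2, the 15 largest rises and falls among changed genes without overlap whose higher group averages 5 FPKM or more, and per list up to 4 changed members or, with none, the 2 with the highest mean; others are marked as chosen after their values were seen. The members and lists were chosen with earlier results of these data known. Alternatives were other pseudocounts, filters, scalings, library weights, no trend, a replicate block, all 9 libraries, and leaving out each library; a fit on 8 libraries was chosen after seeing the data.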

Additional observations from a re-analysis of the deposited data

How the results depend on the processing

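Against 18 changed genes, 11 higher and 7 lower, other settings gave these counts in total, higher and lower. All 9 libraries in 1 fit gave 84, 68 and 16, and 8 libraries without replicate 1 of the libraries labelled rgl2-13 gave 134, 86 and 48, a fit chosen after seeing the data. Median-of-ratios and upper quartile scaling each gave 31, 16 and 15. A filter at 5 FPKM gave 8, 6 and 2 of 9024 genes, and no filter gave 4, 3 and 1. Library weights gave 3190, 2746 and 444, with a weight of 6.34 on replicate 3 of the libraries labelled rgl2-13, 0.176 on replicate 1 and a warning that the weights had not converged. Pseudocounts of 0.1 and 0.5 each gave 19, 12 and 7, and no trend 19, 13 and 6. Requiring also a difference of 1 or more in log2(FPKM + 1) gave 8, 5 and 3, and an adjusted p under 0.01 gave 5, 3 and 2. On that scale low genes are understated, so more of the 18 differed by at least 2-fold in mean FPKM. Leaving out 1 library gave from 5 to 62 in total, 3 to 48 higher and 2 to 31 lower.

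The replicate block gave 247, 212 and 35, with all 18 among them. The labels give the replicate number no meaning. Deviations of same-numbered libraries correlated at 0.26, -0.28 and 0.18, and those of differently numbered libraries at -0.40 to 0.37. With 3 libraries per group, these values cannot show whether the numbers pair the samples. No named gene changed direction past the threshold under any of these alternatives. Over all named genes and alternatives 1242 values kept their side of the threshold, 40 of 18 genes crossed it to pass and 67 of 16 genes no longer passed, and list medians moved by more than their spread in 90 of 611 cases. For 2-decimal FPKM values without counts, differences of genes near 0.01 FPKM are not resolved. The causes of these shifts were not tested.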

Other observations

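Further genes passed in the fit on all 9 libraries (66 beside the 18, 57 of them higher) or in the fit without replicate 1 of the libraries labelled rgl2-13 (45, of which 25 lower), and the following were chosen from these after their values were seen. IAGLU, for a glucosyltransferase that conjugates the auxin indole-3-acetic acid, stood at 99.1, 99.1 and 95.6 FPKM in mock, 102 to 115 FPKM in DOF6ioex estradiol and 205, 136 and 147 FPKM in the libraries labelled rgl2-13 DOF6ioex (limma adjusted p = 0.119 on 6 libraries and 0.0374 on 9). ABCB4, for an auxin transporter, was at 9.90, 7.51 and 7.87 FPKM in mock, 15.2 to 19.6 FPKM in DOF6ioex estradiol and 31.4, 16.6 and 20.4 FPKM there (adjusted p = 0.0504 and 0.0141). CP1 (AT4G36880), for a cysteine proteinase, was level in mock (22.4, 17.8 and 20.03 FPKM) and DOF6ioex estradiol (20.97 to 22 FPKM) and higher at 58.1, 35.1 and 35.3 FPKM (adjusted p = 0.0858 and 0.0225). IAGLU and CP1 were thus apart from both other groups, while ABCB4 overlapped DOF6ioex estradiol.

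Other genes chosen in the same way were XTH30, AGP31 and LBD40. XTH30, for a xyloglucan endotransglucosylase, was at 2.05, 2.25 and 2.79 FPKM in mock and at 5.65, 4.67 and 4.27 FPKM in the libraries labelled rgl2-13 (adjusted p = 0.0543 and 0.0141). AGP31, for an arabinogalactan protein, was at 0.38, 0.61 and 0.43 FPKM and at 1.07, 2.18 and 1.81 FPKM, and entered the test only by being high there (adjusted p = 0.0936 and 0.0343). LBD40, for a LOB-domain factor, was at 187, 190 and 136 FPKM and at 159, 81.2 and 98.9 FPKM, so that replicate 1 overlapped mock (adjusted p = 0.205, and 0.0485 without replicate 1). Its DOF6ioex estradiol values of 89.1, 92.3 and 107 FPKM were below every mock library.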
